A study of Mus musculus with 39 samples.

Results

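Histone deacetylases remove acetyl groups from lysines of histone tails and of other proteins, and a gene whose histones lose acetylation is on the whole less readily transcribed. The class I enzymes Hdac1, Hdac2 and Hdac3 are nuclear and are catalytic subunits of corepressor complexes, with Hdac1 and Hdac2 in the Sin3, NuRD and CoREST complexes and Hdac3 in the NCoR/SMRT complex. The class IIa enzymes Hdac4, Hdac5 and Hdac7 have little deacetylase activity of their own, bind MEF2 transcription factors, and move between nucleus and cytoplasm as kinases phosphorylate them and 14-3-3 proteins hold them. Because such enzymes set the acetylation of enhancers and promoters, they are candidate carriers of innate immune memory, the lasting change of a macrophage after an earlier immune challenge.

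These 6 genes were chosen by a list of symbols, not by a threshold on values, and all 6 were among the 10915 gene entries of the deposited expression table. They were followed in microglia, the macrophages that live within brain tissue, each library made from cells sorted by flow cytometry from female C57BL/6J mice at 9 months of age. The mice were hemizygous APP23 animals, which carry human APP with the Swedish double mutation under the Thy-1 promoter, a promoter chiefly active in neurons, or wildtype (WT) littermates. At 3 months of age they had received 4 daily intraperitoneal injections, either all of vehicle (PBS), 1 of bacterial lipopolysaccharide from Salmonella and then 3 of vehicle (1xLPS), or all 4 of lipopolysaccharide (4xLPS), at 500 µg/kg each time. The libraries comprised 6 APP23 PBS, 5 APP23 1xLPS, 4 APP23 4xLPS, 9 WT PBS, 9 WT 1xLPS and 6 WT 4xLPS, 39 in all. Whether every library stands for its own animal is not stated in the labels, and p-values therefore describe library-to-library spread, part of which may be technical.

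All values are log expression after the authors' surrogate variable correction, read as log2, and are called corrected log2 levels here. Every library averaged 9.00 to 9.01 in these corrected values, which carries no information on the depth of sequencing. That depth is unknown here and limits the precision by an amount that cannot be given. The labels do not state a scaling to transcript length, so levels are compared within a gene and not between genes. Residuals around the 6 group means varied in 24 directions, where 39 libraries allow 33, so limma, which shares information on the spread across entries, was run with 24 degrees of freedom. All 12 microglia markers were present, with gene means from 10.4 to 13.7 and no difference among the 6 groups that passed the test. Of the marker lists of other cells, 4 of 7 border macrophage genes, 2 of 6 of monocytes and neutrophils, 1 of 7 of lymphocytes and 1 of 6 of neurons had an entry. For astrocytes these were 2 of 6, and for endothelium and mural cells 2 of 7. Snap25, Gfap, Mog, Cldn5, Cd3e, S100a8, Cd163 and Lyve1 had none, while the oligodendrocyte gene Mbp, the astrocyte gene Slc1a3 and the macrophage gene Mrc1 did, and of these lists Ccr2 alone passed the test over the 6 groups. The App entry averaged 10.96 and differed by 0.0072 between APP23 and WT averaged over treatments (adjusted p = 0.748), but it checks nothing, since the transgene is human and driven by Thy-1. In bulk RNA, fewer cells of a type and less RNA per cell cannot be told apart.

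Positions are those of GENCODE M21 on the mouse genome GRCm38. Hdac1 spans chromosome 4, 129516104 to 129542713, minus strand, and Hdac2 chromosome 10, 36974544 to 37001889, plus strand. Hdac4 spans chromosome 1, 91928779 to 92195699, Hdac5 chromosome 11, 102194432 to 102230166, and Hdac7 chromosome 15, 97792664 to 97844502, all on the minus strand.

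RefSeq start regions of GRCm38.p6, from 250 bases before to 50 bases after a start site, were listed for 4 of the 6 genes. Those of Hdac2, Hdac4 and Hdac5 are shown because these genes gave the smallest p-values of the comparisons that follow. Capitals mark matches to the GC box GGGCGG on either strand, the core of sites bound by Sp1-type factors.
Hdac2 (chr10:36974294-36974593, plus strand): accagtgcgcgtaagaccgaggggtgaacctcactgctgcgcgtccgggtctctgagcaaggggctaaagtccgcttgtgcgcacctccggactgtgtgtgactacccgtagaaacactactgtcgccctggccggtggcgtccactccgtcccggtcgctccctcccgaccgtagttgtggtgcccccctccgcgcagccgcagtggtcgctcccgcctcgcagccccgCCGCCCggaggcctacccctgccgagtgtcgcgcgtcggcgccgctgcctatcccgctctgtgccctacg
Hdac4 (chr1:92180292-92180591, minus strand): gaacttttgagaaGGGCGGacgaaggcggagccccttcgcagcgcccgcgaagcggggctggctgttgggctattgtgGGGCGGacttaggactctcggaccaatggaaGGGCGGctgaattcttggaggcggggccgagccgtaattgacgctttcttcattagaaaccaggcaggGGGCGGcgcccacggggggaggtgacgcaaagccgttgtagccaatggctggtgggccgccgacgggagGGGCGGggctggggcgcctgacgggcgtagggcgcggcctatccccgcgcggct
Hdac5 (chr11:102230123-102230422, minus strand): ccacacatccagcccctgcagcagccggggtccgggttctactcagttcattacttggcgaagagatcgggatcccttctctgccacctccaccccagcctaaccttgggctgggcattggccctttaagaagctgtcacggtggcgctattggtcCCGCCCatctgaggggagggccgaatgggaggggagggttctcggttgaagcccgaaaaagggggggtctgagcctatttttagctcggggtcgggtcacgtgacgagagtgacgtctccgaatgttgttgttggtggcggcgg
The Hdac4 region lay inside the gene span given above, which on the minus strand begins at 92195699. It thus belongs to a start site within the gene, while the regions of Hdac2 and Hdac5 crossed the start of their spans. The Hdac4 region held 5 GC boxes, a number reached by 2.71% of the 32851 listed start regions. Those of Hdac2 and Hdac5 held 1 each, where 35.7% of all regions held at least 1. The CCAAT box, searched as CCAAT on either strand and overlapping no GC box, occurred 2 times in Hdac4, 2 times in Hdac5 and 0 times in Hdac2, and at least once in 37.4% of all regions. The bases were 69.7% G or C in Hdac2, 68.0% in Hdac4 and 60.7% in Hdac5, against a median of 52.7%. These matches describe the sequence and say nothing about binding.

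Across all comparisons the 6 group means of each deacetylase gene stayed close together. The absolute sizes of these differences were not set against those of all entries, so closeness is not shown as a trait of these genes. In 72 tests, 6 genes in each of 12 contrasts, limma called 0 at an adjusted p under 0.05 (Benjamini-Hochberg over all entries), against 0.546% of the tests over all entries, and the smallest adjusted p was 0.197. Unadjusted p was under 0.05 in 9 of the 72, or 12.5%, which is the share found over all entries and the same 12 contrasts (12.5%). With 33 degrees of freedom, counted from the libraries alone, again 0 of the 72 passed (smallest adjusted p 0.0673), against 4.03%. Of the 9 pairwise contrasts tested per gene, the largest difference was 0.083 in log2 units (1.06-fold). Over all group means, tested as a contrast or not, the widest range was 0.098 (1.07-fold), that of Hdac4, and the 95% confidence intervals of the 54 pairwise differences all lay between -0.15 and 0.15, or 0.899-fold and 1.11-fold. The groups overlapped in 54 of these 54 comparisons, while between 0.229% and 5.73% of all entries did not overlap. The authors' correction may have shrunk or shifted folds relative to the RNA itself. The fit does not carry the error of that correction, so intervals and p-values can be too small.

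**Figure D1:**
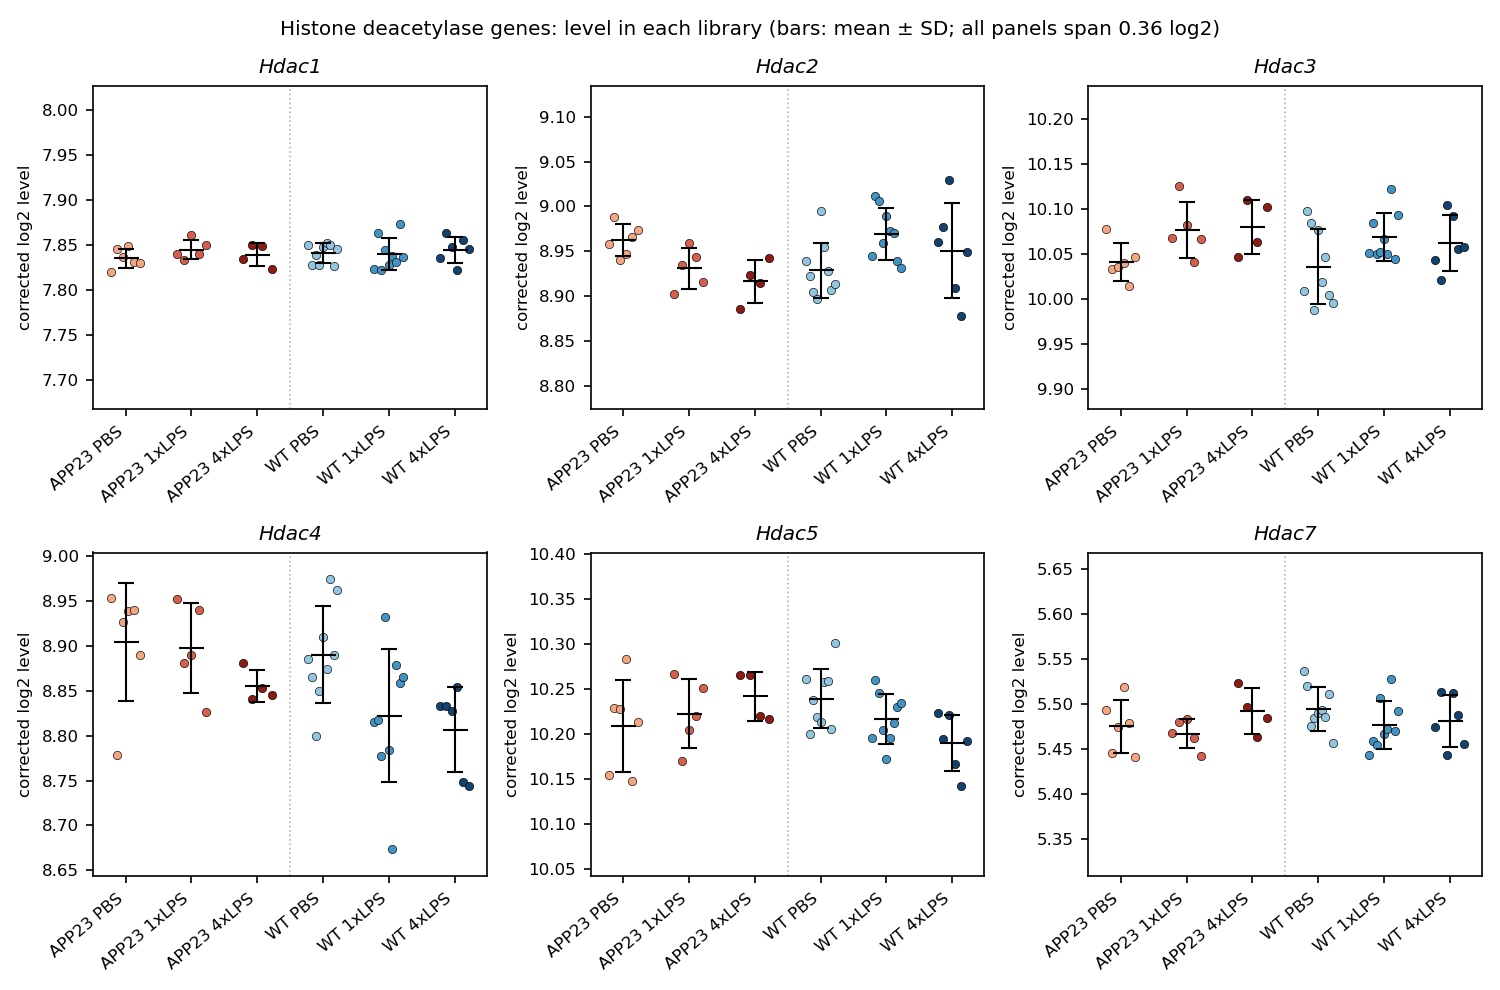
Corrected log2 level of each deacetylase gene (vertical axis, every panel spanning the same log2 range) in the 39 libraries by group (horizontal axis, APP23 left and WT right of the dotted line, treatments from PBS to 4xLPS). Points are libraries and bars the group mean ± SD; the groups overlap in every panel, and Hdac1 lies between 7.82 and 7.87 throughout while Hdac4 runs from 8.67 to 8.97.

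Asked whether any of the 6 groups differed, a moderated F test in limma called 0 of the 6 genes, against 2.13% of all entries, and Hdac4 alone had an unadjusted p under 0.05 (21.2% of entries did). Its F of 2.70 (adjusted p = 0.215) was higher than that of 81.1% of all entries. With 33 degrees of freedom Hdac4 passed (adjusted p = 0.0458), as did 21.1% of entries. With the replicate number as a block Hdac4 passed as well (adjusted p = 0.0224), as did 1399 of the 10915 entries. These numbers were not taken to pair the samples. Hdac2 followed with an F of 1.89 (adjusted p = 0.359), Hdac3 with 1.61, Hdac5 with 1.42 and Hdac7 with 0.815. Hdac1 had an F of 0.151 (adjusted p = 0.987), lower than that of all but 0.88% of entries.

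Hdac1, a class I enzyme and catalytic subunit of Sin3, NuRD and CoREST complexes, varied least. Its group means were 7.835 ± 0.011 in APP23 PBS (SD, n = 6), 7.845 ± 0.011 in APP23 1xLPS (n = 5) and 7.839 ± 0.013 in APP23 4xLPS (n = 4). In wildtype mice they were 7.841 ± 0.011 with PBS (n = 9), 7.840 ± 0.018 with 1xLPS (n = 9) and 7.845 ± 0.015 with 4xLPS (n = 6). The order of the means from APP23 1xLPS at the top to APP23 PBS at the bottom covered 0.0096, and no neighbours in it differed beyond their spread. Its 9 pairwise differences ran from -0.0058 to 0.0096, with interval bounds between -0.036 and 0.037, or 0.975-fold and 1.03-fold. The residual SD of Hdac1 around the group means was 0.0159, and 3.09% of entries had a lower one.

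Hdac2, the close paralog and frequent partner of Hdac1, showed opposite signs after LPS in the 2 genotypes. In APP23 1xLPS its levels were 8.902, 8.916, 8.934, 8.944 and 8.959, and in APP23 4xLPS 8.885, 8.915, 8.924 and 8.943. APP23 PBS ran from 8.940 through a median of 8.962 to 8.989. The highest values of both LPS groups thus overlapped the lowest of PBS, and every LPS library lay below the PBS mean of 8.962. Differences from PBS were -0.031 for 1xLPS (95% CI -0.079 to 0.016, adjusted p = 0.759) and -0.046 for 4xLPS (-0.096 to 0.0049, adjusted p = 0.695).

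In wildtype mice Hdac2 ran from 8.932 through 8.971 to 9.012 with 1xLPS and from 8.878 through 8.955 to 9.030 with 4xLPS, against 8.897 through 8.923 to 8.995 with PBS. All 9 of the 1xLPS libraries were above the PBS mean of 8.929, as were 4 of 6 with 4xLPS, and the ranges overlapped. The differences were 0.040 for 1xLPS (95% CI 0.0034 to 0.077, adjusted p = 0.293) and 0.021 for 4xLPS (-0.020 to 0.063, adjusted p = 0.617). The 1xLPS response in APP23 minus that in WT was -0.072 (SE 0.029, adjusted p = 0.316), and the 4xLPS response -0.067 (adjusted p = 0.323). Neither passed, so no difference between genotypes is shown for Hdac2. The 1xLPS libraries lay on opposite sides of the PBS means of their genotypes, as they did in 1.57% of all entries. By group mean it was highest in WT 1xLPS and lowest in APP23 4xLPS, and no neighbours in that order differed beyond their spread.

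Hdac3 (GRCm38 chromosome 18, 37935844 to 37955016, minus strand), the catalytic subunit of the NCoR/SMRT corepressor, had positive differences after LPS in both genotypes, none of which passed the test. Its means were 10.041 ± 0.021 in APP23 PBS, 10.076 ± 0.031 in APP23 1xLPS and 10.080 ± 0.030 in APP23 4xLPS, and 10.035 ± 0.042 in WT PBS, 10.068 ± 0.027 in WT 1xLPS and 10.062 ± 0.031 in WT 4xLPS. The 4 differences from PBS were 0.036 and 0.039 in APP23 and 0.033 and 0.027 in WT, after 1xLPS and 4xLPS in each. Every WT 1xLPS library (9 of 9) and every APP23 4xLPS library (4 of 4) lay above the PBS mean of its genotype, but the ranges overlapped and the smallest adjusted p among Hdac3 contrasts was 0.377. The lowest value of all was a WT PBS library at 9.988 and the highest an APP23 1xLPS library at 10.126. The 1xLPS response differed between genotypes by 0.0027 (95% CI -0.056 to 0.061) and the 4xLPS response by 0.012 (-0.051 to 0.076).

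Hdac4, a class IIa enzyme that binds MEF2 factors, had the widest spread and the largest differences of the group. Levels in WT 4xLPS were 8.744 at the lowest, 8.830 at the median and 8.854 at the highest, and in WT 1xLPS 8.673, 8.817 and 8.932, against 8.800, 8.886 and 8.974 in WT PBS. No WT 4xLPS library reached the WT PBS mean of 8.890 (0 of 6), and 1 of 9 WT 1xLPS libraries did. The difference was -0.083 after 4xLPS (SE 0.034, 95% CI -0.15 to -0.013, adjusted p = 0.197) and -0.068 after 1xLPS (SE 0.031, -0.13 to -0.0052, adjusted p = 0.296). With 33 degrees of freedom these adjusted p-values were 0.0673 and 0.117.

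In APP23 mice Hdac4 was at 8.840, 8.845, 8.853 and 8.881 with 4xLPS and at 8.826, 8.881, 8.890, 8.940 and 8.952 with 1xLPS, against 8.778 through 8.933 to 8.953 with PBS. All 4 of the 4xLPS libraries lay below the PBS mean of 8.904, inside the range of the PBS libraries. The differences were -0.049 for 4xLPS (95% CI -0.14 to 0.036, adjusted p = 0.830) and -0.0065 for 1xLPS (-0.087 to 0.074, adjusted p = 0.984). APP23 PBS replicate 2, at 8.778, was 0.11 below the next lowest library of its group, which stood at 8.889. Without that library the F test over the 6 groups gave an adjusted p = 0.0988. That fit kept 24 degrees of freedom, so leaving the library out cost it none and this p-value can be too small. Hdac4 had a residual SD of 0.068, above that of 88.8% of entries, so its intervals were the widest of the 6 genes. The group means ran from 8.904 in APP23 PBS to 8.807 in WT 4xLPS and no neighbours in that order differed beyond their spread.

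Hdac5, a class IIa enzyme and substrate of the kinases that drive these proteins out of the nucleus, had opposite signs after 4xLPS in APP23 and WT. APP23 4xLPS libraries were at 10.217, 10.220, 10.266 and 10.266, against 10.147 through 10.221 to 10.284 in APP23 PBS, and all 4 exceeded the PBS mean of 10.209. WT 4xLPS libraries ran from 10.143 through 10.193 to 10.223, against 10.200 through 10.238 to 10.302 in WT PBS, and 0 of 6 reached the PBS mean of 10.240. The ranges overlapped in both genotypes. The difference was 0.033 in APP23 (95% CI -0.020 to 0.087, adjusted p = 0.812) and -0.050 in WT (-0.093 to -0.0059, adjusted p = 0.220). The 4xLPS response in APP23 minus that in WT was 0.083 (SE 0.034, 95% CI 0.014 to 0.15, adjusted p = 0.249), which did not pass. All 4xLPS libraries lay on opposite sides of the PBS means of their genotypes, as in 3.95% of all entries.

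After 1xLPS the Hdac5 differences were 0.014 in APP23 (95% CI -0.037 to 0.064) and -0.023 in WT (-0.062 to 0.016). The order of its 6 group means ran from APP23 4xLPS at 10.242 to WT 4xLPS at 10.190, again with no neighbours that differed beyond their spread. Hdac7, a class IIa enzyme best known from endothelium and T cells, was at 5.476 ± 0.029 in APP23 PBS, 5.467 ± 0.016 in APP23 1xLPS and 5.492 ± 0.025 in APP23 4xLPS. In wildtype mice it was at 5.495 ± 0.025 with PBS, 5.477 ± 0.027 with 1xLPS and 5.481 ± 0.029 with 4xLPS. Its pairwise differences ran from -0.019 to 0.025, and its smallest adjusted p was 0.534. Hdac7 averaged 5.48 over all libraries, under the lower quartile of the entry means (8.081), as did Hdac1 at 7.84. The part of this low level in the narrow differences and small spread of Hdac7 was not tested, so they are not shown as stability of its RNA.

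**Figure D2:**
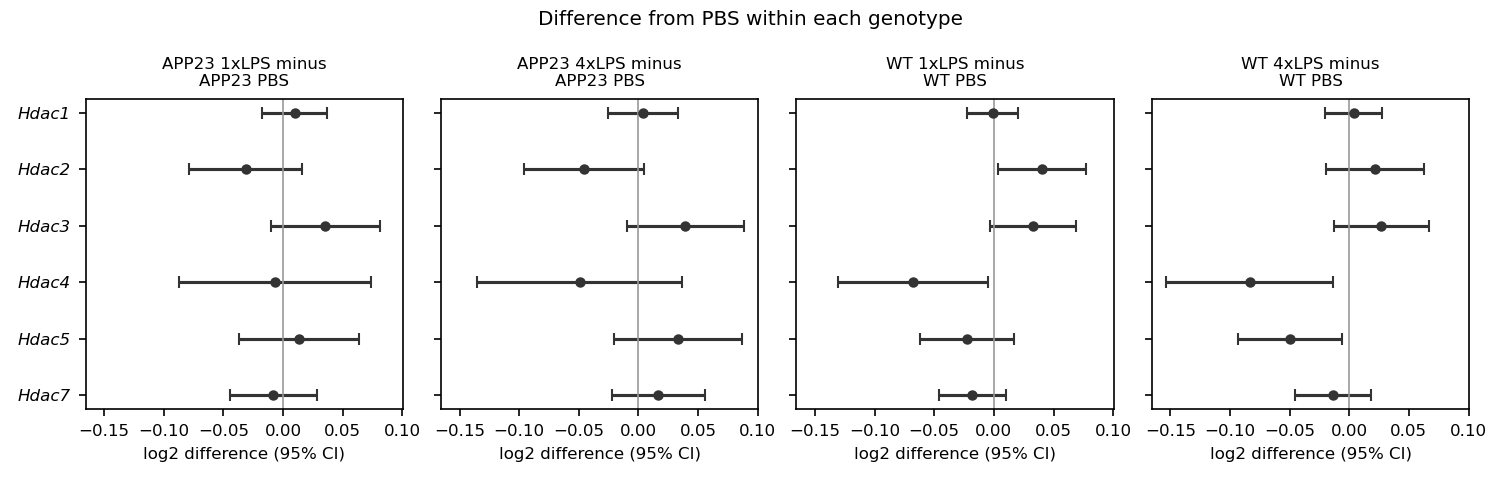
Difference in corrected log2 level (horizontal axis, LPS minus PBS of the same genotype) for the 6 deacetylase genes (rows) in the 4 LPS responses (panels); points are limma estimates and bars 95% confidence intervals. Hdac1 sits within 0.0096 of 0 in each panel, and the intervals that miss 0 before adjustment are those of Hdac2 and Hdac4 after 1xLPS and of Hdac4 and Hdac5 after 4xLPS in wildtype mice.

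By comparison, 1xLPS against PBS in wildtype mice had 0 of the 6 genes called by limma, against 0.44% of all entries (6.05% with 33 degrees of freedom), and 2 with an unadjusted p under 0.05 (14.9% of entries). The median of the 6 differences was -0.0094, beside 0.0014 over all entries, and no gene had groups that did not overlap (0.229% of entries did). For 4xLPS against PBS in wildtype mice 0 were called (1.51% of entries, 8.95% with 33 degrees of freedom), 0 did not overlap (1.53%) and 2 had an unadjusted p under 0.05 (17.4%), with a median of -0.0049 beside 0.0023 over all entries. For 4xLPS against 1xLPS in wildtype mice 0 were called (0.0183%, or 0.66% with 33 degrees of freedom), 0 did not overlap (0.431%) and 0 had an unadjusted p under 0.05 (9.13%), and the differences ran from -0.027 for Hdac5 to 0.0047 for Hdac1.

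In APP23 mice, 1xLPS against PBS gave 0 called members by limma and 0 with an unadjusted p under 0.05, against 0% and 8.47% of entries; with 33 degrees of freedom 0.715% of entries were called, and 1.97% did not overlap. For 4xLPS against PBS these were 0 and 0, against 0% and 7.62% (0.247% with 33 degrees of freedom, 2.44% not overlapping). For 4xLPS against 1xLPS they were 0 and 0, against 0% and 9.74% (1.48% with 33 degrees of freedom, 5.73% not overlapping). With no entry of the whole table called in these 3 comparisons, the absence of deacetylase calls there separates the genes from nothing. Each pair of the 3 comparisons within a genotype shares a group of libraries, so their values are not independent of each other.

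Between genotypes, APP23 PBS against WT PBS had 0 members called by limma (2.51% of entries, 9.62% with 33 degrees of freedom), 0 not overlapping (1.66%) and 0 with an unadjusted p under 0.05 (18.1%). The largest differences there were 0.033 for Hdac2 (95% CI -0.0081 to 0.074) and -0.030 for Hdac5 (-0.074 to 0.013). APP23 1xLPS against WT 1xLPS had 0 called (0.33%, or 4.34% with 33 degrees of freedom), 0 not overlapping (1.67%) and 1 with an unadjusted p under 0.05 (12.9%), which was Hdac4. Its mean was 8.898 ± 0.050 in APP23 1xLPS (n = 5) and 8.822 ± 0.074 in WT 1xLPS (n = 9), a difference of 0.075 (95% CI 0.0014 to 0.15, adjusted p = 0.377). All 5 APP23 libraries were above the WT mean.

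APP23 4xLPS against WT 4xLPS had 0 called by limma (0%, or 1.57% with 33 degrees of freedom), 0 not overlapping (3.38%) and 0 with an unadjusted p under 0.05 (9.54%), with the largest difference in Hdac5, 0.052 (95% CI -0.0011 to 0.11). Averaged over the 3 treatments, APP23 against WT had 0 called (1.18%, or 6.07% with 33 degrees of freedom) and 1 with an unadjusted p under 0.05 (14.8%), Hdac4 at 0.046 (adjusted p = 0.318). The difference between genotypes in the 1xLPS response had 0 called (0.0366%, or 3.39% with 33 degrees of freedom) and 1 with an unadjusted p under 0.05 (12.2%), and that in the 4xLPS response 0 called (0.522%, or 5.3% with 33 degrees of freedom) and 2 (14.6%). These are the Hdac2 and Hdac5 values given above. Sequencing lanes are not assigned to libraries in the labels, so a lane could not enter the fit and its part in these values was not tested.

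**Figure D3:**
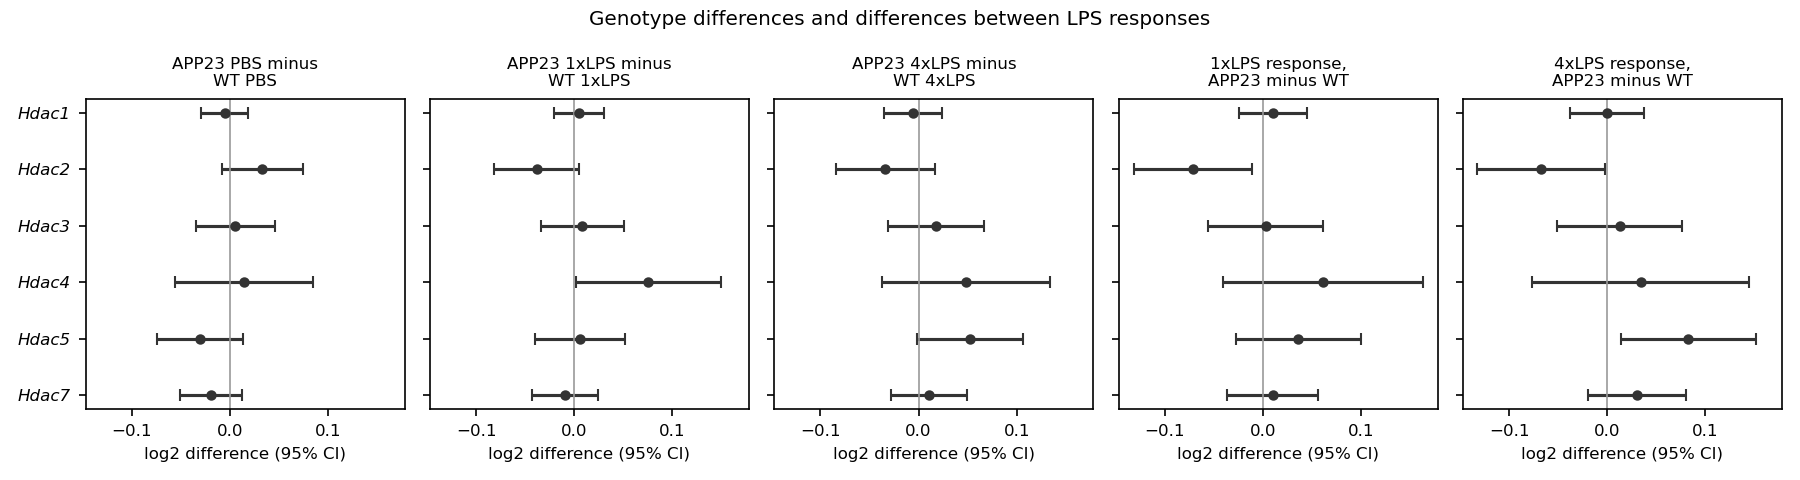
Genotype differences in corrected log2 level (horizontal axis, APP23 minus WT) under each treatment, and the difference of the 1xLPS and 4xLPS responses between genotypes (2 panels on the right), for the 6 genes (rows) with 95% confidence intervals. Hdac2 is at -0.072 and -0.067 in the response panels and Hdac5 at 0.083 for 4xLPS, none of which passed after adjustment.

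The residual SD was 0.0159 for Hdac1, 0.030 for Hdac7, 0.037 for Hdac2 and for Hdac3, 0.041 for Hdac5 and 0.068 for Hdac4, beside a median of 0.0407 over all entries. A gene with the spread of Hdac1 thus allowed differences of a few hundredths to be bounded, while for Hdac4 differences of up to 0.15 remained inside the intervals. Over the 39 libraries Pearson's r over the 15 pairs of members ran from -0.31 for Hdac2 with Hdac7 to 0.33 for Hdac1 with Hdac5. Around the group means it ran from -0.25 for Hdac2 with Hdac7 to 0.41 for Hdac1 with Hdac5, with 0.37 for Hdac4 with Hdac7. These are descriptions of libraries that share one correction.

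**Figure D4:**
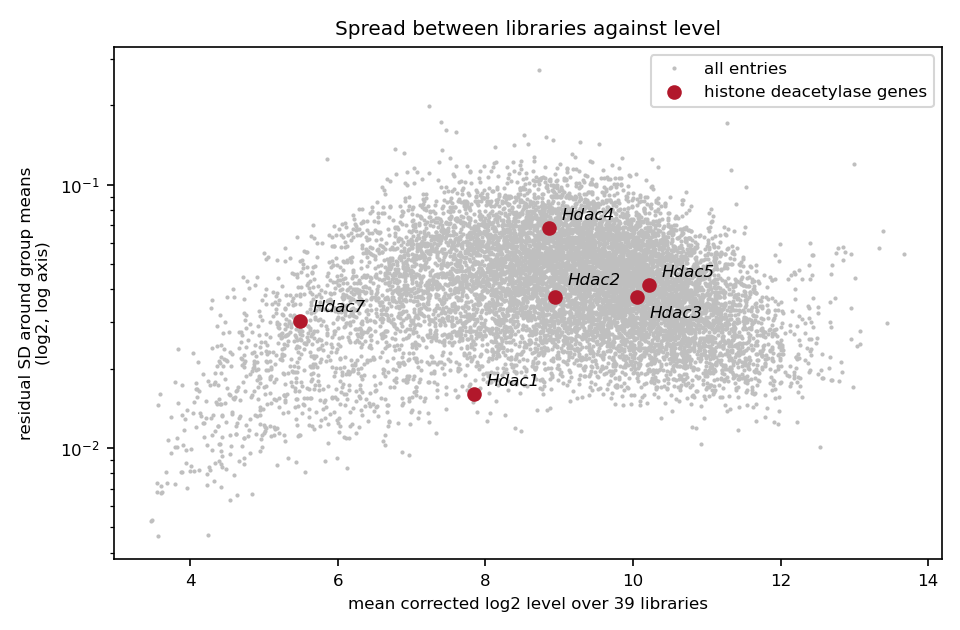
Residual SD around the 6 group means (vertical axis, log2 units on a log axis, 24 degrees of freedom) against mean corrected log2 level over 39 libraries (horizontal axis) for all 10915 entries (grey) and the 6 deacetylase genes (red). Hdac1 at 0.0159 lies at the lower edge of the entries of its level and Hdac4 at 0.068 in the upper part.

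The entries most like each member over the 39 libraries were taken by Pearson's r of the corrected log2 levels, and no relation of function follows from them. For Hdac1 these were Thumpd3 (r = 0.694), Atf6b (0.643) and Ppa1 (0.632), and for Hdac2 Lrrc45 (0.682), Cebpd (0.655) and Zfyve9 (0.653). Hdac3 was most like Arfgap2 (0.696), Commd3 (0.664) and Tnni3 (0.645). Hdac4 was most like Dot1l (0.664), a histone H3 methyltransferase, Gramd1b (0.648) and Polr2b (0.645), a subunit of RNA polymerase II. Hdac5 had the closest likeness of the 6 genes, with the transcription factor gene Hhex (0.733), the protease gene Adam15 (0.717) and Tyw1 (0.712). Hdac7 was most like Katna1 (0.623), Copb1 (0.606) and Ttc7 (0.601).

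In the authors' deposited table of co-expression modules, which covers 13624 genes, the 6 deacetylases fell in 5 classes. That table puts Hdac1 in the turquoise module (2113 genes), Hdac3 in red (949), Hdac4 in green (990) and Hdac7 in blue (1878), and leaves Hdac2 and Hdac5 in grey, which holds the 3544 genes without a module. The correlation with the own module in the authors' deposited table was 0.43 for Hdac4, the highest of the members, 0.30 for Hdac3, 0.24 for Hdac1 and 0.16 for Hdac7. The authors' unadjusted p-values of these correlations were 0.0062, 0.063, 0.139 and 0.341. Hdac3 and Hdac7 correlated more strongly with other modules, at -0.40 with black and -0.42 with pink. Correlations with the 1xLPS trait in the authors' deposited table lay between -0.18 for Hdac7 and 0.19 for Hdac3, with unadjusted p-values by the authors from 0.252 to 0.925. The authors' deposited table gives the trait only by its name.

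Of 12 listed, 5 further Hdac genes and the 7 sirtuins, NAD-dependent deacetylases, all 12 were measured, and limma called 0 in 144 tests (smallest adjusted p 0.114), and 12 tests, or 8.33%, had an unadjusted p under 0.05, against 12.5% over all entries. Sirt1, a nuclear deacetylase of histones and of NF-kB, averaged 7.403 in WT 4xLPS and 7.498 in WT PBS, a difference of -0.095 (95% CI -0.16 to -0.029, adjusted p = 0.114). Sirt2, mainly a tubulin deacetylase, differed by -0.037 in the same comparison (adjusted p = 0.127). Hdac11, the class IV enzyme, averaged 8.593 in APP23 PBS and 8.662 in WT PBS, a difference of -0.069 (adjusted p = 0.147). These 3 passed with 33 degrees of freedom (adjusted p = 0.0269, 0.0270 and 0.0415), or 2.08% of the 144 tests, against 4.03% over all entries. Hdac9, the remaining class IIa gene, had pairwise differences from -0.083 to 0.039, and Hdac8, the remaining class I gene, from -0.016 to 0.043. Hdac6, a cytoplasmic tubulin deacetylase, had the widest pairwise difference of these 12 genes, at 9.666 in APP23 1xLPS and 9.763 in APP23 PBS (-0.097, 95% CI -0.21 to 0.017, adjusted p = 0.656). Hdac10, a polyamine deacetylase, ranged from -0.021 to 0.028. Among the mitochondrial sirtuins the pairwise differences ran from -0.074 to 0.052 for Sirt3, from -0.024 to 0.026 for Sirt4 and from -0.0081 to 0.0094 for Sirt5. For the nuclear sirtuins they ran from -0.046 to 0.051 for Sirt6 and from -0.026 to 0.038 for Sirt7.

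Partners of these enzymes, and readers of acetyl-lysine, were described by 6 lists. Complex subunits were those of NCoR/SMRT (6 genes measured), Sin3 (13), NuRD (12) and CoREST and MiDAC (8). Another list held MEF2 factors, 14-3-3 proteins and kinases that act with class IIa enzymes (18). The acetyl-lysine readers (15) were not listed as partners of the deacetylases. Limma called 0 of these 72 genes in 864 tests, and 103 of the tests (11.9%) had an unadjusted p under 0.05, near the 12.5% of all entries. The smallest adjusted p-values were those of the bromodomain genes Brpf3 (0.071 higher in APP23 than in WT averaged over treatments, adjusted p = 0.0550) and Bptf (0.115 between APP23 PBS and WT PBS, adjusted p = 0.0563). Chd4, the NuRD remodeller that works with Hdac1 and Hdac2, came next, at 10.264 in WT 4xLPS and 10.337 in WT PBS (-0.073, adjusted p = 0.0589). With 33 degrees of freedom 31 of the 864 tests passed, these 3 among them, or 3.59%, against 4.03% over all entries.

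The counterpart enzymes, histone acetyltransferases and coactivators, included genes that passed the test. Of 14 genes measured, 3 had a difference among the 6 groups in the F test (2.13% of all entries did), namely Kat2a, Kat6a and Ncoa2. Kat2a, also known as GCN5 and the catalytic subunit of the SAGA complex, rose in WT 1xLPS, WT 4xLPS and APP23 PBS relative to WT PBS. It averaged 10.183 ± 0.026 in WT 1xLPS (n = 9), 10.193 ± 0.033 in WT 4xLPS (n = 6) and 10.190 ± 0.025 in APP23 PBS (n = 6), against 10.115 ± 0.029 in WT PBS (n = 9). The differences were 0.068 (95% CI 0.037 to 0.098, adjusted p = 0.0358), 0.078 (0.043 to 0.11, adjusted p = 0.0210) and 0.074 (0.040 to 0.11, adjusted p = 0.0184). WT PBS libraries ran from 10.062 to 10.148, below every one of WT 1xLPS (10.159 to 10.236) and of APP23 PBS (10.159 to 10.220), while WT 4xLPS began at 10.131 and overlapped. Groups did not overlap in 0.229% of all entries for WT 1xLPS against PBS and in 1.66% for APP23 PBS against WT PBS. Kat2a was named for its calls, so this separation is no further evidence. All 3 Kat2a comparisons use the same WT PBS libraries. In APP23 PBS against WT PBS the monocyte marker Ccr2 was lower (8.99 and 9.22, adjusted p = 0.0329 in limma) and the macrophage marker Stab1 higher (by 0.067, adjusted p = 0.0335). The other measured genes of these lists did not pass and had mixed signs. They were Plac8 (0.044), Mrc1 (-0.124), Pf4 (-0.022) and F13a1 (0.085). The means over the 2 measured of 6 monocyte and neutrophil markers were 7.81 and 7.90. Over the 4 measured of 7 border macrophage genes they were 8.559 and 8.557. The part of these markers in the Kat2a difference was not tested. In APP23 mice Kat2a differed by -0.027 after 1xLPS (adjusted p = 0.753) and 0.010 after 4xLPS (adjusted p = 0.939), and its response did not pass as different from that in WT (1xLPS -0.095, adjusted p = 0.117). Leaving out WT PBS replicate 4, 8 or 9 or WT 1xLPS replicate 3 ended the 1xLPS call (adjusted p from 0.0511 to 0.0583).

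Kat6a, the MOZ acetyltransferase, fell to 11.092 ± 0.022 in WT 4xLPS (n = 6), against 11.157 ± 0.025 in WT PBS (n = 9), a difference of -0.066 (95% CI -0.10 to -0.030, adjusted p = 0.0498). In APP23 it was at 11.186 ± 0.034 with 4xLPS (n = 4) and 11.133 ± 0.024 with PBS (n = 6), 0.054 higher (adjusted p = 0.564). The 4xLPS response in APP23 minus that in WT was 0.12 (SE 0.028, adjusted p = 0.0403) and passed. The wildtype call was lost without a mean-variance trend (adjusted p = 0.0572) and without any 1 of WT PBS replicates 2, 4, 5, 6 and 9 and WT 4xLPS replicates 1, 2, 4, 5 and 6 (adjusted p from 0.0541 to 0.0872). The difference of responses was lost without APP23 PBS replicate 1, APP23 4xLPS replicate 3 or 4, or WT 4xLPS replicate 1 or 4 (adjusted p from 0.0524 to 0.0924).

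Ncoa2, a nuclear receptor coactivator that recruits acetyltransferases, was lower in APP23 1xLPS, at 10.683 ± 0.050 (n = 5), than in WT 1xLPS, at 10.801 ± 0.037 (n = 9). The difference of -0.118 (95% CI -0.17 to -0.066) had an adjusted p = 0.0426, and all but APP23 1xLPS replicate 5, at 10.769, lay below the lowest WT library, at 10.745. Leaving out APP23 1xLPS replicate 1, 2, 3 or 4 or WT 1xLPS replicate 4 ended this call (adjusted p from 0.0515 to 0.0939). With PBS, Ncoa2 averaged 10.807 ± 0.037 in APP23 (n = 6) and 10.755 ± 0.043 in WT (n = 9). The APP23 1xLPS mean thus lay below that of APP23 PBS too, in a comparison where 0 entries of the whole table were called. Over the 12 contrasts the 14 genes had 4 higher and 2 lower calls in 168 tests (3.57%, against 0.546% over all entries), and 18 with 33 degrees of freedom (10.7%, against 4.03%). Unadjusted p in limma was under 0.05 in 41 of the 168 (24.4%, against 12.5%). The 6 calls came from 3 genes, and those of Kat2a share the WT PBS libraries. These tests are therefore not independent, and the shares do not show how widely the list differs. The deacetylase and acetyltransferase lists were not tested against each other.

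**Figure D5:**
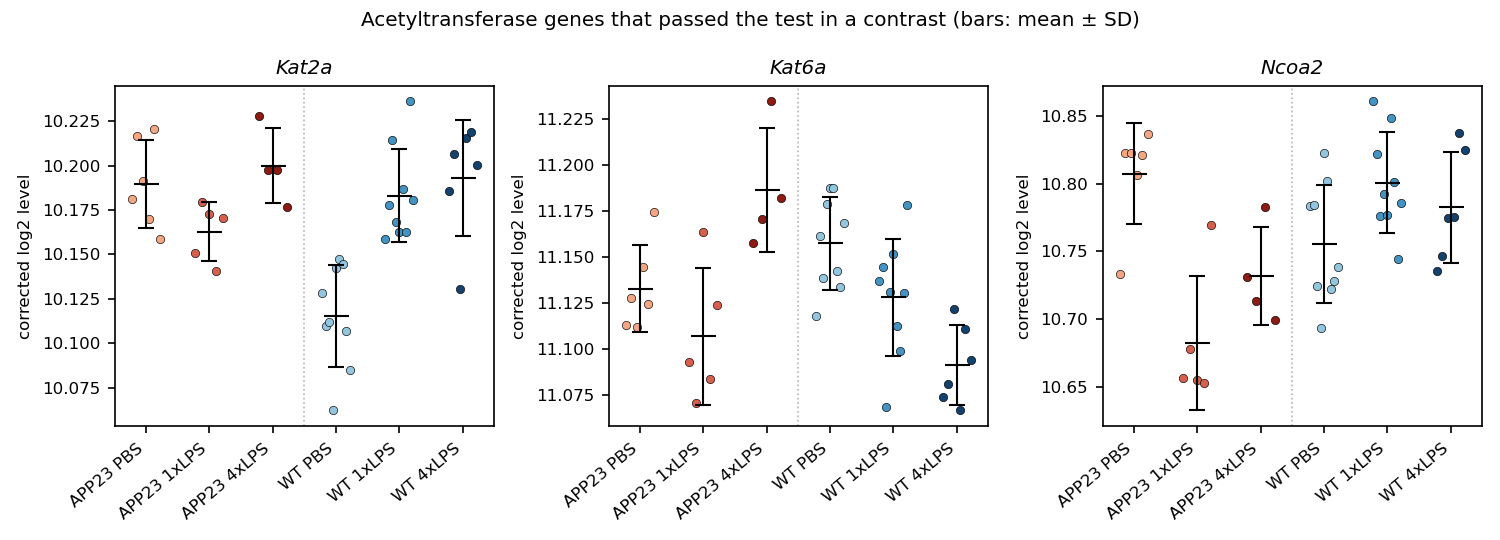
Corrected log2 level (vertical axis, a separate range per panel) of the 3 acetyltransferase and coactivator genes with a call, by library and group (horizontal axis), with the group mean ± SD as bars. Kat2a is lowest in WT PBS (mean 10.115), Kat6a lowest in WT 4xLPS (11.092) and highest in APP23 4xLPS (11.186), and Ncoa2 lowest in APP23 1xLPS (10.683).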

How the data were processed

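RNA of sorted microglia was amplified by a Smart-seq protocol and made into Nextera XT libraries, per the labels' protocols. Per the submitters' processing notes, the tools were HOMER, STAR, FastQC, limma and DESeq2 and the build mm10, with no roles stated. The deposited log2 values (base read as 2, not given in the sources used here) were normalized by the authors and, per the sheet name, corrected by surrogate variable analysis. The deposited scores are the authors' correlations of genes with a trait and modules, beside their unadjusted p-values, and a deposited column names the module. No low-value filter was applied here, and 1 column that no sample label matched was not used.

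All entries were fitted in limma 3.58.1 (R 4.3.3) with 6 group means over 39 libraries, a mean-variance trend, and the 9 directions without residual variance as covariates, leaving 24 degrees of freedom, with 12 contrasts and a moderated F test. Adjusted p-values are Benjamini-Hochberg over 10915 entries, ± is SD between libraries, and the script was tested on simulated data. The members, lists and tests were chosen with earlier results of these data known. The text names the 6 members, all called genes of the lists, the other deacetylases, and the 3 entries with the highest r to each member; Brpf3, Bptf and Chd4 were named after their values were seen. Reads were counted in a way not given here, so overlapping antisense transcripts cannot be told apart. Alternatives were 33 degrees of freedom, no trend, a level filter, median centring, fits of only the groups compared, a replicate block and leaving out each library. The count over the oligodendrocyte marker list is not reported here.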

Additional observations from a re-analysis of the deposited data

Results flagged for a closer look

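Of 36 sets of libraries (6 genes in 6 groups), 1 held a library far from the rest, where chance alone gives about 1 in 20. It was Hdac4 in APP23 PBS replicate 2, at 8.778 against 8.889 for the next lowest, a gap that was 0.637 of the range of the group.

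For a pair of results every LPS library of one genotype lay on one side of its PBS mean and every LPS library of the other genotype on the opposite side. Hdac2 after 1xLPS did so, with 0 of 5 APP23 libraries and 9 of 9 WT libraries above, a pattern shown by 1.57% of all entries; its difference between responses was -0.072 (adjusted p = 0.316 in limma). Hdac5 after 4xLPS did so, with 4 of 4 APP23 libraries and 0 of 6 WT libraries above, a pattern shown by 3.95% of entries; its difference was 0.083 (adjusted p = 0.249). Neither passed the test of the difference itself.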

How the results depend on the processing

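The number of members called stayed at 0 in all 12 contrasts under each alternative run, the 39 fits without 1 library included. In the F test over the 6 groups it became 1, Hdac4, with 33 degrees of freedom and 1, Hdac4, with the replicate block. A level filter at the lower quartile removed Hdac1 and Hdac7, and fits of only the groups compared were not run for the average over treatments or the F test. Signs turned only for differences near 0 or with wide intervals. Centring libraries on their medians gave 0.0022 for the Hdac1 difference between 4xLPS responses (main value -9.02e-05). The replicate block gave 0.0087 for Hdac4 in WT 4xLPS against WT 1xLPS and -0.0051 for its difference between 4xLPS responses. Without single libraries, the differences between responses ran from -0.0047 to 0.0051 for Hdac1 (4xLPS) and from -0.0096 to 0.012 for Hdac3 (1xLPS). Within APP23 they ran from -0.0058 to 0.016 for Hdac3 in 4xLPS against 1xLPS, and in 1xLPS against PBS from -0.032 to 0.011 for Hdac4 and from -0.015 to 0.00061 for Hdac7. Within WT they ran from -0.0050 to 0.0015 for Hdac1 in 1xLPS against PBS, and in 4xLPS against 1xLPS from -0.014 to 0.0023 for Hdac3 and from -0.0022 to 0.012 for Hdac7. Between genotypes they ran from -0.0041 to 0.017 for Hdac3 and from -0.0053 to 0.019 for Hdac5 under 1xLPS, and from -0.0019 to 0.013 for Hdac3 under PBS.

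Numbers of entries called in the whole table depended far more on the fit. For APP23 1xLPS and 4xLPS against PBS and 4xLPS against 1xLPS they were 0, 0 and 0, with 33 degrees of freedom 78, 27 and 162, and with the block 44, 1 and 80. For the same comparisons in WT they were 48, 165 and 2, then 660, 977 and 72, then 496, 634 and 26. For APP23 against WT under PBS, 1xLPS, 4xLPS and averaged they were 274, 36, 0 and 129, then 1050, 474, 171 and 662, then 752, 257, 63 and 354. For the 1xLPS and 4xLPS differences between responses they were 4 and 57, then 370 and 579, then 245 and 331, and for the F test 233, 2300 and 1399. Fits of only the groups compared called between 0 and 886. The pairwise fits among them used all degrees of freedom their libraries allow, such as 16 for WT 1xLPS against PBS. They made no allowance for the directions without residual variance over the 39 libraries, so their p-values can be too small. Median centring changed 36 to 62 for APP23 against WT under 1xLPS and 4 to 17 for the 1xLPS difference between responses, which the level filter changed to 0. Without single libraries the counts ran from 159 to 348 for APP23 PBS against WT PBS, from 66 to 205 for WT 4xLPS against PBS, from 3 to 54 for APP23 against WT under 1xLPS, and for the differences between responses from 3 to 21 (1xLPS) and from 34 to 80 (4xLPS). For comparisons with 0 or 2 calls, centring, the filter and leaving out single libraries gave at most 8, and fits of only the groups compared up to 32. Of 79 pairs of libraries with the same number in different groups, 17 had residuals correlated above 0.1 (median 0.036), and 3 of 39 libraries correlated best with their own number, so the numbers were not taken to pair the samples. The block left 24 degrees of freedom too, as did each fit without 1 library. These changes cost the fit none, so their p-values can be too small. The cause of the higher counts with the block was not tested. Depth is unknown, so what it limits cannot be given.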
